A study of Mus musculus with 12 samples.

Results

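The mouse Wt1 gene (Wilms' tumor suppressor) is transcribed into variants that include or skip the codons for lysine, threonine and serine (KTS) between the last zinc fingers, and 2 mutant lines each lack one class of variant. In XX fetal gonads these mutants were set against each other directly: -KTS KO gonads, which cannot make -KTS variants, and +KTS KO gonads, which cannot make +KTS variants. Embryos of both lines were homozygous for their allele per the study's text, were kept on a mixed B6CBAF1/JRj background and were collected at E12 (23 ± 3 tail somites), and each group had 2 libraries of single cells made with the 10x Genomics 3' chemistry. XX wild-type (WT) gonads of the same age, also 2 libraries, gave the reference level, and the XY mutants gave the same contrast in other embryos. The study describes its -KTS KO samples as pools of embryos, but its list of embryos gives 1 embryo for -KTS KO replicate 1, as for each +KTS KO library, so whether that library is a pool is not settled. The list shows differing tail somite stages within both mutant groups, with the least advanced embryos in +KTS KO replicate 2 and in the pool of -KTS KO replicate 2. No source used here says whether the 2 libraries of a group came from separate litters. Every p-value below thus measures the spread between libraries, of single embryos or pools. Unless a fit is said to use fewer libraries, that spread was estimated over all 6 groups of the series, WT and XY included.

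Cells with at least 1000 detected genes and at most 10% mitochondrial UMIs (unique molecular identifiers, each standing for 1 captured transcript) were kept. Germ cells (at least 10 UMIs of Dppa5a, Pou5f1, Ddx4 and Dazl together), endothelial cells (at least 3 UMIs of Cdh5 and Tie1), immune cells (at least 3 UMIs of Tyrobp and Fcer1g) and cells with more than 20% globin UMIs were removed. This left 22404 somatic cells of the 25818 that passed the first step and of the 33887 barcodes in the 4 mutant libraries, out of 71955 such cells in the whole series of 12 libraries. The -KTS KO libraries held 4600 and 4798 cells and the +KTS KO libraries 8435 and 4571. The UMIs of a library's cells were added up, to 60596914 to 110103277, and are given as CPM, counts scaled to a common library total. In each pair of values below, replicate 1 comes before replicate 2. The label log2 stands for the log2 fold change of -KTS KO over +KTS KO with a standard error (SE). Each SE was worked back from the fold change and edgeR's F statistic, and was not estimated on its own. For genes of few UMIs it can be smaller than counting error alone. Pnmt (± 0.31) and Lfng (± 0.27), with 18 UMIs each in -KTS KO, are examples.

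WT1 is a zinc finger transcription factor that the gonadal ridge needs in order to form and to be maintained. The -KTS form binds DNA as a regulator of transcription, and the +KTS form is known for its affinity for RNA and its place in nuclear speckles. In the XX gonad, somatic progenitors of the coelomic epithelium give rise to pre-supporting cells, which become pre-granulosa cells that express Foxl2, while other somatic cells form the interstitium that later makes steroid hormones.

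The 9 bases on which the mutants turn are the end of the longer form of Wt1 exon 9, at chr2:105170010-105170018 on the plus strand of GRCm38 (mm10). They are shown in capitals, with 10 bases on either side. In the GENCODE M21 annotation 5 protein-coding Wt1 transcripts carry them and 2 lack them.
+KTS transcript: actcatacagGTAAAACAAgtgaaaagcc
-KTS transcript: actcatacaggtgaaaagcc
The 3' counts cannot tell these forms apart, so the total Wt1 level does not check the genotypes. Wt1 was at 290.3 and 263 CPM in the -KTS KO libraries, 251 and 225 CPM in the +KTS KO libraries and 273 and 269 CPM in WT, a log2 difference between the mutants of 0.22 ± 0.18 (SE, edgeR adjusted p = 0.486). Total Wt1 thus did not pass the test, although both -KTS KO libraries lay above both +KTS KO libraries.

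The labels of sex and tissue were checked first. Xist, which is transcribed from the inactive X chromosome, stood at 679.6 and 535 CPM in -KTS KO and 605 and 525 CPM in +KTS KO, and the Y-linked Ddx3y and Eif2s3y had 0 UMIs in all 4 libraries. The gonadal somatic markers Wt1, Gata4, Nr5a1, Lhx9 and Emx2 summed to 803 to 909 CPM over the 4 libraries. The -KTS KO replicate 2 library stood apart from the other 3: 20.7% of its kept cells were germ cells against 6.06% in -KTS KO replicate 1 and 5.55% and 3.20% in +KTS KO, and 6256 of its 10491 barcodes passed the first filter. Endothelial cells made up 1.03% and 1.28% of kept cells in -KTS KO and 2.70% and 1.95% in +KTS KO, which do not overlap. An exact permutation test of 2 libraries against 2 cannot pass 0.05, and none was made. Between 5 and 12 cell barcodes were shared by any pair of the 4 libraries. What was left of other cell types in the somatic cells is given beside the results it moves with.

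The direct comparison found a wide difference between the mutants. Of 18019 genes tested with edgeR's quasi-likelihood test at a Benjamini-Hochberg adjusted p (FDR) of 0.05, 3266 (18.1%) were called, of which 1523 (8.45% of all tested) were higher and 1743 (9.67%) lower in -KTS KO. Both libraries of 1 mutant lay above both of the other for 64.9% of all genes tested and for all 3266 called genes. A called gene was thus bound to keep its direction when 1 library was left out. Changes of at least 2 on the log2 scale were called for 623 higher and 736 lower genes, and changes of at least 5 for 77 and 155. In these summed cells, fewer cells of a type and less RNA per cell cannot be told apart. Without 1 library the count fell to 1972 (-KTS KO replicate 1 left out), 1937 (-KTS KO replicate 2), 1564 (+KTS KO replicate 1) and 2177 (+KTS KO replicate 2), and none of the called genes turned direction in those 4 fits. Of the 138 called genes chosen for naming, 85 passed in each of these 4 fits, and 40, 32, 46 and 31 were lost in turn. The WT mean lay between the mutant means for 73.5% of the higher and 73.3% of the lower calls, against 39.4% of all genes tested. The WT mean was below both for 20.5% of the higher and 4.07% of the lower calls, and above both for 6.04% and 22.6%. These shares describe genes chosen for a wide gap between the mutant means. The counts given below for each gene list stand against these shares of all genes tested, 18.1% called, 8.45% higher and 9.67% lower, and nothing particular to a list is read from them. The share called ran from 0% of nuclear speckle and splicing genes to 59.1% of Sertoli-cell genes, in lists chosen with earlier results known. The study compared clusters of cells, whereas all somatic cells of a library were summed here, so levels are not those of any 1 cell cluster. Of the genes tested within 10 Mb of Wt1, where DNA linked to the mutant alleles would lie, 15 of 70 were called (21.4%).

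**Figure D1:**
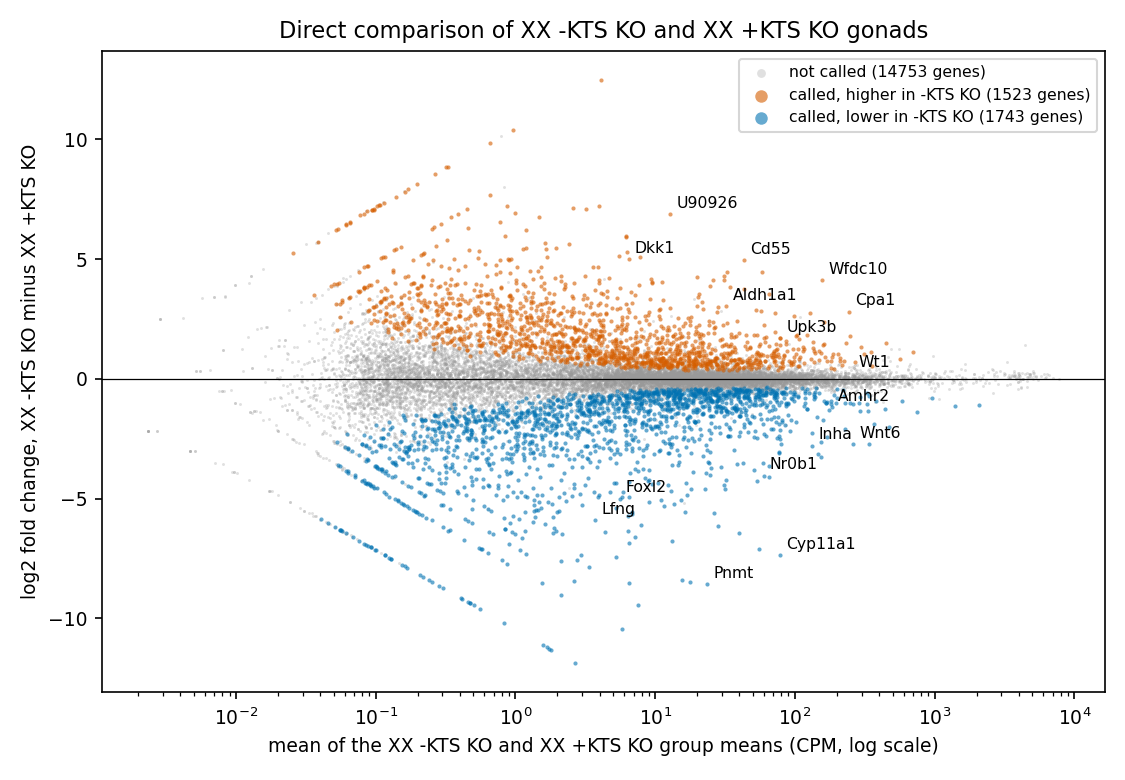
Each point is 1 of the genes tested, with the mean level of the mutant groups in CPM on a log axis and the log2 fold change of XX -KTS KO over XX +KTS KO on the vertical axis. The 1523 genes called higher (orange) and 1743 called lower (blue) in -KTS KO spread to both sides, Cyp11a1 and Pnmt stand far below 0, and Wt1 lies near 0. The diagonal streaks at the left are genes of very few UMIs, whose fitted fold changes depend on the prior count.

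The genes of the supporting lineage did not move as one. Foxl2 (ENSMUSG00000050397, chr9:98955288-98958543 on GRCm38), the transcription factor that marks pre-granulosa cells, was close to absent in -KTS KO, at 0.298 and 0.382 CPM, against 15.0 and 6.57 CPM in +KTS KO and 18.98 and 22.6 CPM in WT. The log2 difference between the mutants was -5.00 ± 0.76 (SE, edgeR adjusted p = 0.00176), with +KTS KO replicate 2 the lower of its pair and both groups well apart. Fst (follistatin, which binds activin and is a target of FOXL2 and WNT4) did not follow it. It stood at 529 and 463 CPM in WT but at 17.1 and 9.85 CPM in -KTS KO and 38.9 and 8.89 CPM in +KTS KO, and the mutants, whose libraries overlap, differed by -0.83 ± 0.98 (SE, edgeR adjusted p = 0.642). Irx3, an Iroquois transcription factor of pre-granulosa cells, showed the same arrangement, at 57.8 and 59.8 CPM in WT, 10.8 and 13.9 CPM in -KTS KO and 14.7 and 3.96 CPM in +KTS KO, and a log2 difference of 0.40 ± 0.80 (SE, edgeR adjusted p = 0.799). For Fst and Irx3, +KTS KO replicate 1 was several times above replicate 2.

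Of the 20 pre-granulosa genes listed, all tested, 4 were lower in -KTS KO (Foxl2, Runx1, Nr0b1 and Wnt9a), 3 were higher (Lgr5, Gng13 and Foxp1) and 13 did not pass, with a median log2 difference of 0.37 against 0.01 over all genes tested, as for each list below. Runx1, a transcription factor of early supporting cells, was at 35.4 and 30.2 CPM against 131 and 96.4 CPM in +KTS KO and 96.3 and 104 CPM in WT, a difference of -1.79 ± 0.30 (SE, edgeR adjusted p = 0.00302). The +KTS KO libraries were thus near the WT level of Runx1 and the -KTS KO libraries below it. Wnt9a, a Wnt ligand, was at 1.39 and 2.61 against 8.96 and 5.72 CPM, a difference of -1.89 ± 0.44 (SE, edgeR adjusted p = 0.0156). Lgr5, a receptor for R-spondins, was higher in -KTS KO, at 3.13 and 1.65 against 0.826 and 0.368 CPM (log2 1.995 ± 0.56, edgeR adjusted p = 0.0351), yet both groups lay below WT (5.52 and 5.17 CPM). Gng13, a G protein subunit, was at 50.2 and 37.3 against 10.1 and 6.96 CPM (log2 2.35 ± 0.66, edgeR adjusted p = 0.0354), with WT between them. Foxp1, a forkhead transcription factor, was at 79.6 and 54.9 against 18.9 and 28.0 CPM (log2 1.52 ± 0.27, edgeR adjusted p = 0.00352), with the WT libraries at the +KTS KO level. Lgr5 and Gng13 were past the threshold in 10 of 14 alternative analyses, Wnt9a in 12 and Foxl2, Runx1, Nr0b1 and Foxp1 in all 14.

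Among the signalling genes of ovarian development, Wnt4, Rspo1, Kitl and Bmp2 did not pass the test between the mutants. Wnt4, the ligand that maintains the XX fate, was at 435 and 205 CPM in -KTS KO and 349 and 222 CPM in +KTS KO (log2 0.17 ± 0.40, edgeR adjusted p = 0.838). Rspo1, an R-spondin that amplifies that signal, was at 243 and 244 against 214 and 114 CPM (log2 0.57 ± 0.31, edgeR adjusted p = 0.253). Kitl, the ligand for the KIT receptor of germ cells, was at 107 and 226 against 110.5 and 142 CPM (log2 0.40 ± 0.38, edgeR adjusted p = 0.549). Bmp2, a BMP ligand of the fetal ovary, was at 20.7 and 20.7 against 12.3 and 11.5 CPM (log2 0.80 ± 0.40, edgeR adjusted p = 0.224), both below the 57.5 and 47.3 CPM of WT. For Wnt4 and Kitl the mutant libraries overlapped, and for Rspo1 and Bmp2 both -KTS KO libraries were the higher. Bmp2 passed in 2 of 14 alternatives, with the XX libraries or the XX mutant libraries fitted alone (lowest edgeR adjusted p = 0.00526).

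**Figure D2:**
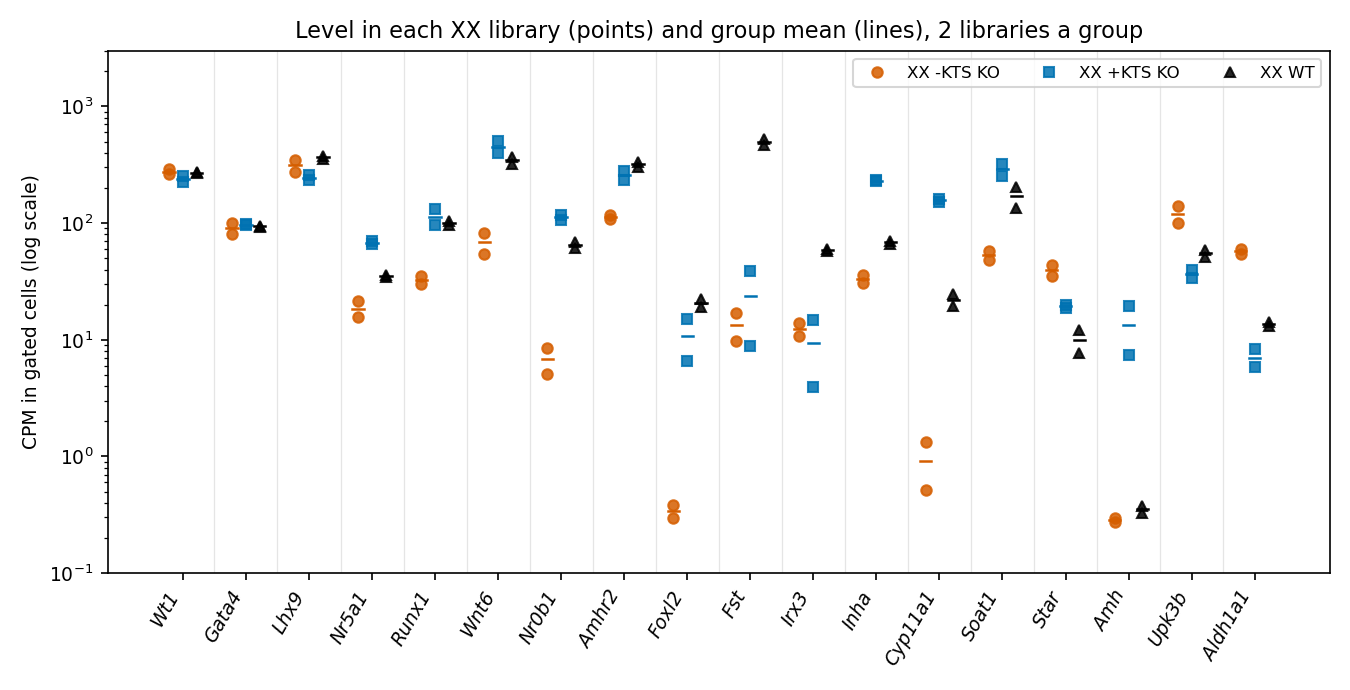
Each symbol is 1 library (2 per group) and each short line a group mean, in CPM on a log axis, for 18 genes of the gonad in XX -KTS KO (orange circles), XX +KTS KO (blue squares) and XX WT (black triangles). Wt1 and Gata4 sit at close levels in all groups, Foxl2, Nr0b1, Cyp11a1 and Amh lie far lower in -KTS KO than in +KTS KO, Fst and Irx3 are below WT in both mutants, and Upk3b and Aldh1a1 are higher in -KTS KO.

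Of 13 genes of pre-supporting cells, 4 were lower in -KTS KO (Nr0b1, Wnt6, Lgals7 and Runx1), 2 higher (Tac1 and Sox11) and 7 did not pass, with a median of -0.85. Several of these genes were named by the study from cell clusters of these same libraries, so the list is not independent evidence, and the values below are of all somatic cells. Nr0b1, an orphan nuclear receptor encoded on the X chromosome that restrains steroidogenic genes, was at 8.53 and 5.05 CPM in -KTS KO, 118 and 107 CPM in +KTS KO and 69.5 and 60.8 CPM in WT, a difference of -4.04 ± 0.32 (SE, edgeR adjusted p = 5.28e-05). Wnt6, a Wnt ligand of pre-supporting cells, was at 82.8 and 53.9 CPM against 502 and 401 CPM, with WT at 322 and 369 CPM and a difference of -2.72 ± 0.21 (SE, edgeR adjusted p = 4.47e-05). For both genes the order was -KTS KO below WT below +KTS KO, with no overlap between any 2 groups. Lgals7, a galectin, was at 184 and 192 against 980.01 and 531 CPM (log2 -2.005 ± 0.32, edgeR adjusted p = 0.00215), and here WT was highest, at 1286 and 1473 CPM. Sprr2d, of the Sprr2 family of near-identical genes whose reads can be hard to place, was at 7.93 and 8.21 against 48.6 and 13.1 CPM and 154 and 119 CPM in WT. Its difference of -1.94 ± 0.71 (SE, edgeR adjusted p = 0.0926) did not pass, and +KTS KO replicate 2 lay nearer to -KTS KO than to its own replicate. It passed in 3 of 14 alternatives, and ran from -2.61 to -0.70 over them. Tac1, which encodes substance P and neurokinin A, was at 4.81 and 10.9 CPM in -KTS KO against 0.0375 and 0.0649 CPM in +KTS KO (log2 7.23 ± 1.06, edgeR adjusted p = 0.00139). Sox11, an SRY-related transcription factor of progenitor cells, was at 172 and 155 against 54.0 and 75.6 CPM (log2 1.33 ± 0.23, edgeR adjusted p = 0.00304), with WT at the +KTS KO level.

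Among 22 transcription factors of the gonadal ridge, 5 were lower in -KTS KO, 3 were higher and 14 did not pass (median 0.15). Nr5a1 (steroidogenic factor 1), the nuclear receptor that switches on steroidogenic and supporting-cell genes, was at 15.6 and 21.4 CPM in -KTS KO and 65.7 and 70.5 CPM in +KTS KO, a difference of -1.88 ± 0.23 (SE, edgeR adjusted p = 0.000542). WT lay between them, at 35.7 and 34.5 CPM. Gata6, a GATA factor partner of NR5A1, was at 124 and 113 against 239.6 and 245 CPM (log2 -1.03 ± 0.17, edgeR adjusted p = 0.00225). Gata4, its relative, was at 79.9 and 101 against 96.0 and 98.5 CPM (log2 -0.11 ± 0.18, edgeR adjusted p = 0.763). The first passed and the second, whose groups overlap, did not. The LIM homeobox gene Lhx9 (0.35 ± 0.17, edgeR adjusted p = 0.207) and the homeobox gene Emx2 (-0.25 ± 0.20, edgeR adjusted p = 0.445) did not pass either. The odd-skipped genes Osr1 and Osr2 were called in opposite directions. Osr1, of early intermediate mesoderm, was at 26.4 and 11.7 CPM in -KTS KO against 1.25 and 3.78 CPM (log2 2.93 ± 0.54, edgeR adjusted p = 0.00478). Osr2 was at 0.573 and 0.366 against 6.33 and 3.31 CPM (log2 -3.34 ± 0.47, edgeR adjusted p = 0.00111). Lhx2 (1.36 ± 0.40, edgeR adjusted p = 0.0403) and Cbx2 (0.55 ± 0.17, edgeR adjusted p = 0.0475), a Polycomb protein, were higher in -KTS KO close to the threshold, past it in 8 and 5 of 14 alternatives.

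Among the 22 Sertoli-cell genes, 10 were lower in -KTS KO, 3 were higher and 9 did not pass. The median was -1.57, or -1.10 when Sox10, with 0 UMIs in -KTS KO, is set at its bound. Amh, the anti-Müllerian hormone of Sertoli cells, was at 0.275 and 0.299 CPM in -KTS KO and 0.328 and 0.376 CPM in WT, and at 19.5 and 7.46 CPM in XX +KTS KO, so the +KTS KO libraries lay above both other groups, and the mutants differed by -5.55 ± 0.73 (SE, edgeR adjusted p = 0.000786). Dhh, the hedgehog ligand of Sertoli cells, had 2 UMIs in -KTS KO and 1053 in +KTS KO, a ratio of 390 with a counting interval of 108 to 3227. In CPM, Dhh was at 5.97 and 4.51 in +KTS KO and 0.420 and 0.461 in WT. The Dhh level of +KTS KO was thus above WT as well. Ptgds, a prostaglandin D synthase, was at 0.412 and 0.931 against 36.6 and 6.26 CPM (log2 -5.04 ± 1.14, edgeR adjusted p = 0.013). Cst9, a cystatin of early supporting cells, was at 1.32 and 0.548 against 24.1 and 15.7 CPM (log2 -4.37 ± 0.68, edgeR adjusted p = 0.00188). WT lay below +KTS KO for Ptgds and overlapped it for Cst9. Sox9, the transcription factor that directs Sertoli cells, was low and overlapped between the groups, at 7.20 and 4.80 CPM and 4.84 and 6.66 CPM (log2 0.07 ± 0.67, edgeR adjusted p = 0.966). The genes that were higher in -KTS KO were Mro (3.15 ± 0.44, edgeR adjusted p = 0.00105), Cldn11 (1.18 ± 0.35, edgeR adjusted p = 0.0404), a tight junction claudin, and Pdgfa, a platelet-derived growth factor ligand. Pdgfa was at 98.9 and 96.4 CPM against 43.3 and 43.8 CPM (log2 1.17 ± 0.28, edgeR adjusted p = 0.0169), with WT at 44.0 and 36.8 CPM. Cldn11 was past the threshold in 8 of 14 alternatives, Pdgfa in 10 and Ptgds in 11.

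Genes of steroid synthesis were lower or did not pass: of 17 tested among 20 listed, 7 were lower, none was higher and 10 did not pass, with a median of -0.89. Cyp11a1 (ENSMUSG00000032323, chr9:58006411-58027023 on GRCm38), the side-chain cleavage enzyme that makes pregnenolone from cholesterol, was at 1.33 and 0.515 CPM in -KTS KO and 151 and 161 CPM in +KTS KO, a difference of -7.36 ± 0.65 (SE, edgeR adjusted p = 8.43e-05). WT stood at 24.6 and 19.6 CPM, between the mutants and overlapping neither. Soat1, which esterifies cholesterol for storage, was at 48.3 and 58.2 against 324 and 253 CPM (log2 -2.44 ± 0.43, edgeR adjusted p = 0.00363). Cyp17a1, the enzyme that opens the way to androgens, was at 1.39 and 0.415 against 5.18 and 4.21 CPM (log2 -2.36 ± 0.52, edgeR adjusted p = 0.012). Insl3, a peptide hormone of Leydig cells, had 0 UMIs in -KTS KO and 164 in +KTS KO, at least 40.5-fold lower in -KTS KO against a floor of 3 UMIs over the group. For Soat1 WT lay between the mutants, and for Cyp17a1 it overlapped -KTS KO. Star, which carries cholesterol into mitochondria, had the opposite sign. Its level was 35.1 and 44.1 CPM in -KTS KO against 18.8 and 19.8 CPM in +KTS KO and 12.2 and 7.71 CPM in WT, and its difference of 1.04 ± 0.32 (SE, edgeR adjusted p = 0.0509) lay just outside the threshold, with 7 of 14 alternatives inside it. Adrenocortical cells, which share steroid genes, were looked for by their markers: Cyp11b1 had 0 UMIs in both groups and Cyp21a1 2 and 1, and the summed list of 8 (42.9 and 49.6 CPM in -KTS KO, 30.7 and 30.8 CPM in +KTS KO) was mostly Star. Of its 6 tested members (median -1.37) Cyp17a1 and Mrap were lower, Mc2r higher and 3 did not pass. The part of this list in the steroid genes was not tested.

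Of 22 genes of cholesterol synthesis, the supply of that pathway, 6 were lower, none was higher and 16 did not pass (median -0.22). Mvd, Mvk and Hmgcs1 are enzymes of the mevalonate pathway. Mvd was at 16.4 and 17.9 against 36.6 and 30.9 CPM (log2 -0.97 ± 0.16, edgeR adjusted p = 0.00285). Mvk was at 27.7 and 28.6 against 50.7 and 50.1 CPM (log2 -0.84 ± 0.14, edgeR adjusted p = 0.00257), and Hmgcs1 was lower as well (-0.60 ± 0.17, edgeR adjusted p = 0.0327). Msmo1, a later sterol oxidase, was at 33.0 and 35.6 against 61.1 and 56.9 CPM (log2 -0.78 ± 0.15, edgeR adjusted p = 0.00541). Each of these differences was under 1 on the log2 scale.

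Of 16 genes of the activin, inhibin and follistatin system, 2 were lower in -KTS KO, 4 higher and 10 did not pass (median 0.14). The lower genes were both subunits of inhibin B. Inha, the alpha subunit, was at 35.8 and 30.9 CPM in -KTS KO, 235 and 228 CPM in +KTS KO and 70.5 and 66.6 CPM in WT (log2 -2.79 ± 0.34, edgeR adjusted p = 0.000538). Inhbb, the beta B subunit, was at 9.47 and 6.93 CPM in -KTS KO, 65.2 and 65.2 CPM in +KTS KO and 30.5 and 35.5 CPM in WT (log2 -2.99 ± 0.25, edgeR adjusted p = 6.34e-05). Both had the order -KTS KO, WT, +KTS KO with no overlap. On the receiving side, the type I receptor Acvr1c was higher in -KTS KO, at 13.4 and 22.6 against 3.84 and 4.03 CPM (log2 2.19 ± 0.29, edgeR adjusted p = 0.000785). The type II receptor Acvr2b (0.62 ± 0.14, edgeR adjusted p = 0.0119), the decoy receptor Bambi (1.02 ± 0.22, edgeR adjusted p = 0.0109) and the signal transducer Smad3 (0.65 ± 0.18, edgeR adjusted p = 0.0301) were also higher.

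Cells carrying these transcripts were counted after each cell was thinned to 5000 UMIs, which 4406 of 4600, 3288 of 4798, 7998 of 8435 and 4298 of 4571 cells reached. Cyp11a1 was found in 0.431% and 0.182% of -KTS KO cells and in 32.5% and 32.0% of +KTS KO cells, and among endothelial cells of the +KTS KO libraries, which should lack it, in 6.28% and 8.05%. Inha was found in 9.96% and 9.85% of -KTS KO and 46.8% and 45.0% of +KTS KO cells, and in 8.79% and 4.598% of the +KTS KO endothelial cells. The +KTS KO shares of both genes were several times above these. The -KTS KO shares of Cyp11a1 were below them and those of Inha near them. These endothelial cells are of other libraries, so the -KTS KO shares are set against those of their own libraries below. Nr0b1 was found in 3.04% and 2.37% of -KTS KO against 35.5% and 33.9% of +KTS KO cells, Wnt6 in 16.1% and 15.3% against 68.0% and 59.8%, Runx1 in 11.3% and 10.8% against 41.1% and 33.5% and Amhr2 in 29.8% and 38.2% against 68.6% and 61.1%. In +KTS KO endothelial cells the shares were 6.28% and 5.75% for Nr0b1, 15.5% and 4.598% for Wnt6, 3.77% and 2.30% for Runx1 and 12.6% and 2.30% for Amhr2, all below those of the gonadal cells of the same libraries. The -KTS KO shares of Nr0b1 were below these as well. Those of Wnt6 were near the higher of them but above the 2.08% and 2.99% of endothelial cells in their own libraries. Foxl2 was found in 0.159% and 0.182% of -KTS KO cells (7 of 4406 and 6 of 3288 cells, with 95% Wilson intervals of 0.0770 to 0.328% and 0.0837 to 0.398%) and in 6.63% and 3.23% of +KTS KO cells, against 1.67% and 1.15% of +KTS KO endothelial cells at the same depth and 8.33% and 9.88% of WT gonadal cells. The 1.15% is 1 of 87 cells, with a 95% Wilson interval of 0.203 to 6.23%. That interval holds the 3.23% of +KTS KO replicate 2, whose Foxl2 share is thus not shown to be above its background. Amh was found in 0.204% and 0.122% against 6.15% and 2.84% of cells and in 0.126% and 0.233% of WT cells. Among +KTS KO endothelial cells Amh was in 0.837% and in 0 of 87 cells, which allows up to 3.45%, so the share of +KTS KO replicate 2 lay below that limit. Endothelial cells of the -KTS KO libraries, 48 and 67 after thinning, held none with Foxl2, Inha, Nr0b1, Cyp11a1, Runx1 or Amh. This allows shares of up to 6.25% and 4.48%. The -KTS KO shares of Inha and Runx1 were above these limits. Those of Foxl2, Nr0b1, Cyp11a1 and Amh were below them and cannot be told from background. Amhr2 was in 6.25% and 4.48% of these endothelial cells (95% Wilson intervals up to 16.8% and 12.4%), below its -KTS KO shares. These intervals and limits cover counting error only. In the opposite direction, Upk3b was found in 20.9% and 29.5% of -KTS KO and 9.76% and 8.26% of +KTS KO cells. Upk3b was in 4.17% of the 48 and in 0 of the 67 -KTS KO endothelial cells. Without thinning, the shares in -KTS KO and +KTS KO were 0.543% and 0.417% against 12.96% and 8.82% for Foxl2, 1.04% and 0.396% against 42.2% and 44.0% for Cyp11a1, 21.5% and 16.3% against 60.9% and 62.3% for Inha and 8.20% and 3.79% against 55.2% and 58.5% for Nr0b1. They were 24.5% and 21.5% against 76.3% and 70.7% for Wnt6, 25.3% and 19.3% against 62.2% and 60.1% for Runx1, 49.5% and 48.3% against 85.6% and 81.7% for Amhr2, 0.522% and 0.375% against 10.9% and 7.70% for Amh and 32.7% and 34.5% against 15.0% and 13.8% for Upk3b, so each pair kept its order. The libraries differed in depth, with median UMIs per cell of 16461 and 12146 in -KTS KO and 11972 and 18991 in +KTS KO.

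**Figure D3:**
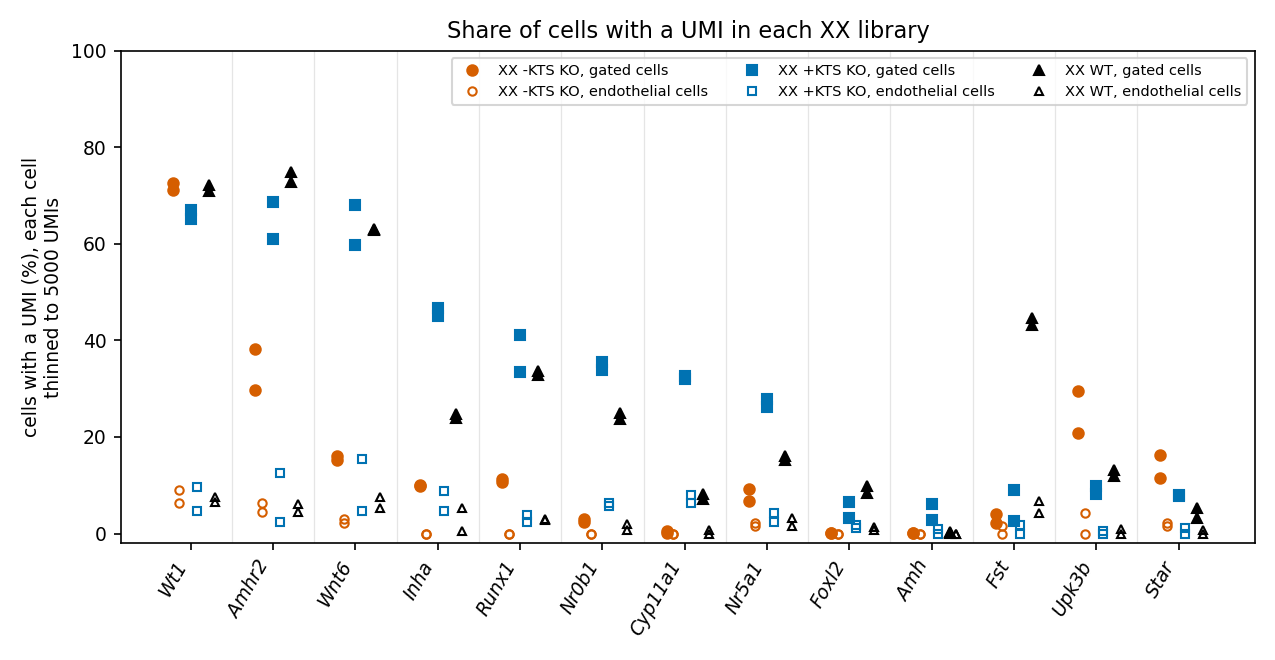
The percent of cells with at least 1 UMI of each gene, after thinning each cell to 5000 UMIs, is plotted for each XX library, with filled symbols for gonadal somatic cells and open symbols for the endothelial cells removed from the same library. Cyp11a1, Inha, Nr0b1, Runx1 and Wnt6 are found in far fewer cells of -KTS KO (orange) than of +KTS KO (blue), Wt1 is found in 65.1 to 72.7% of cells in all 4 mutant libraries, and Upk3b is found in more cells of -KTS KO.

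Amhr2, the receptor for anti-Müllerian hormone, was at 109 and 117 CPM in -KTS KO against 279.8 and 232 CPM in +KTS KO and 334 and 303 CPM in WT (log2 -1.18 ± 0.14, edgeR adjusted p = 0.000503). It belongs to the genes reported as WT1 targets elsewhere, a list of 24 of which 23 were tested, 6 were lower in -KTS KO, 3 were higher and 14 did not pass (median -0.06). The lower members with the largest changes were Nr0b1, Podxl, Nr5a1 and Igf2. Podxl, a sialomucin of podocytes, was at 32.2 and 38.7 against 152 and 117 CPM (log2 -1.92 ± 0.28, edgeR adjusted p = 0.00136). The higher members were Gas1, Spry1 and Pdgfa. Gas1, a co-receptor for hedgehog ligands, was at 449.9 and 320.2 against 88.5 and 135 CPM (log2 1.78 ± 0.24, edgeR adjusted p = 0.000786), with WT at the +KTS KO level. Tcf21, a basic helix-loop-helix factor of mesenchyme, was at 363 and 207 against 182 and 256 CPM and did not pass (log2 0.38 ± 0.45, edgeR adjusted p = 0.644), with overlapping groups.

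Motifs near the starts of the named genes were looked up as a description of sequence. Promoters of 300 bases (250 before to 50 after each start, RefSeq on GRCm38.p6) were matched by symbol for 105 of 154 named genes, and both strands were searched for CAAGGTCA, a letter form bound by NR5A1, and GCGTGGGNG, a letter form bound by WT1 without KTS. The first was in 1.56% and the second in 1.90% of all 32851 promoters. Among genes matched to a promoter (1282 lower calls, 1080 higher calls and 13173 genes tested), CAAGGTCA was present for 2.57% of the lower calls, 1.39% of the higher calls and 1.51% of genes tested, and GCGTGGGNG for 4.13%, 3.61% and 3.56%. Of the 105 named genes, 1 held the first (0.952%) and 2 the second (1.90%), lower shares than among genes tested. The matches at Amhr2 and Runx1 are printed with the motif in capitals on the strand of the gene.
Amhr2 (chr15:102445125-102445152, plus strand): caccttcttcCAAGGTCAgtaggggtag
Runx1 (chr16:92697544-92697572, minus strand): tgcggggtcgGCGTGGGTGcgggagctgg
The Runx1 match is near a start inside the gene, which spans chr16:92601466-92826149, and the 3' counts do not show which start was used. A match of letters is a description of the sequence and not a measured binding site.

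Of 18 genes of the coelomic epithelium, the surface layer from which gonadal somatic cells arise, 5 were higher in -KTS KO, 3 lower and 10 did not pass (median 0.24). Upk3b, an uroplakin of mesothelial cells, was at 99.8 and 139 CPM in -KTS KO and 39.6 and 33.9 CPM in +KTS KO, with WT at 59.2 and 50.7 CPM (log2 1.70 ± 0.24, edgeR adjusted p = 0.00124). Cav1, the caveola coat protein, was at 43.2 and 49.8 against 3.52 and 2.77 CPM (log2 3.88 ± 0.64, edgeR adjusted p = 0.0026). Aldh1a2, a retinaldehyde dehydrogenase, was at 139.9 and 132 against 71.4 and 62.2 CPM (log2 1.03 ± 0.13, edgeR adjusted p = 0.000495). WT lay between the mutants for Upk3b, Cav1 and Aldh1a2. Keratins were called in both directions, with Krt18 higher (1.196 ± 0.27, edgeR adjusted p = 0.0123) and Krt7 (-1.36 ± 0.21, edgeR adjusted p = 0.00207) and Krt19 (-1.24 ± 0.23, edgeR adjusted p = 0.00447) lower in -KTS KO. Muc16, a surface mucin of mesothelium, had 0 UMIs in -KTS KO and 1075 in +KTS KO (5.90 and 4.83 CPM), at least 266-fold lower in -KTS KO. The WT level of Muc16 was 2.61 and 3.39 CPM, between the mutants.

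Of 21 genes of interstitial progenitors, 5 were higher in -KTS KO, 2 lower and 14 did not pass (median 0.72). Wnt5a, a noncanonical Wnt ligand, was at 87.0 and 80.7 CPM against 23.2 and 23.9 CPM (log2 1.83 ± 0.33, edgeR adjusted p = 0.00395). Meis2, a TALE homeobox factor, was at 215 and 189.96 against 49.9 and 88.3 CPM (log2 1.55 ± 0.29, edgeR adjusted p = 0.005). Rgs5, a regulator of G protein signalling found in pericytes, was at 16.8 and 16.2 against 4.02 and 7.34 CPM (log2 1.54 ± 0.45, edgeR adjusted p = 0.0416). The -KTS KO libraries were the highest of all 3 groups for these genes. The perivascular marker list summed to 32.8 and 29.6 CPM in -KTS KO and 17.8 and 22.4 CPM in +KTS KO. Rgs5, which is part of the list, gave 16.8 and 16.2 CPM of the -KTS KO sums. The median log2 difference of the list had the opposite sign, at -0.92. Notch3 was also higher, Cspg4 lower, 4 of 7 did not pass and Higd1b had 0 UMIs. The part of the perivascular list in the interstitial result was not tested. The lower genes were Mgp, matrix Gla protein, at 10.3 and 3.27 against 31.8 and 26.4 CPM (log2 -2.09 ± 0.46, edgeR adjusted p = 0.0112), and Pdgfrl (-0.88 ± 0.25, edgeR adjusted p = 0.0391). Nr2f2, a nuclear receptor used to mark this lineage, was at 177 and 100.3 against 144 and 137 CPM and did not pass (log2 -0.02 ± 0.24, edgeR adjusted p = 0.973). The WT levels were 41.9 and 64.0 CPM for Meis2 and 41.6 and 42.6 CPM for Wnt5a.

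In the signalling pathways some members were called, in both directions, and most did not pass. Of 38 Wnt and R-spondin genes tested among 40, 9 were higher, 8 lower and 21 did not pass (median 0.20). Secreted inhibitors were among the higher. Dkk1 was at 12.8 and 12.2 CPM in -KTS KO against 0.272 and 0.509 CPM (log2 5.01 ± 0.79, edgeR adjusted p = 0.00206). Frzb was at 10.97 and 15.2 against 0.216 and 2.13 CPM (log2 3.49 ± 0.84, edgeR adjusted p = 0.0172), and at 5.89 without +KTS KO replicate 2 and 2.61 without +KTS KO replicate 1. Rnf43, a membrane ubiquitin ligase that removes Wnt receptors, was higher too (2.97 ± 0.35, edgeR adjusted p = 0.000434), as was the agonist Rspo3, at 21.1 and 15.6 against 2.14 and 4.45 CPM (log2 2.48 ± 0.69, edgeR adjusted p = 0.0331). Sp5, a transcriptional target of the pathway, was lower, at 6.45 and 2.77 against 37.1 and 16.6 CPM (log2 -2.53 ± 0.49, edgeR adjusted p = 0.00611), with WT highest at 61.1 and 62.8 CPM. Wnt6, Wnt9a and the R-spondin receptor Lgr6 (-1.90 ± 0.49, edgeR adjusted p = 0.0232) completed the largest falls. Dkk1 and Rnf43 held in 14 of 14 alternatives, Frzb in 13, Lgr6 in 11 and Rspo3 in 10.

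Of 29 BMP and TGF-beta genes tested among 30, 9 were higher in -KTS KO, 3 lower and 17 did not pass (median 0.33). Id3, a target that inhibits helix-loop-helix factors, was at 812 and 518 against 182 and 284 CPM (log2 1.51 ± 0.29, edgeR adjusted p = 0.00574). Nog, the BMP antagonist noggin, was at 2.70 and 0.914 against 0.422 and 0.379 CPM (log2 2.18 ± 0.50, edgeR adjusted p = 0.0143). Smad9, a BMP transducer, was higher as well (3.19 ± 0.68, edgeR adjusted p = 0.00971). The lower genes were Bmper (-1.32 ± 0.31, edgeR adjusted p = 0.0158), the inhibitor Smad7 (-0.996 ± 0.18, edgeR adjusted p = 0.00456) and Amhr2.

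Of 12 hedgehog genes tested among 14, 3 were lower, 1 higher and 8 did not pass (median -0.55). Dhh was among the lower genes, as was the effector Gli2, at 2.97 and 3.32 CPM in -KTS KO against 10.6 and 10.3 CPM in +KTS KO (log2 -1.73 ± 0.20, edgeR adjusted p = 0.000357). Gas1 was the higher gene. Of 18 Notch genes, 4 were lower, 1 higher and 13 did not pass (median -0.01). Lfng, the glycosyltransferase that modifies Notch, was at 0.126 and 0.116 against 7.44 and 7.18 CPM (log2 -5.89 ± 0.27, edgeR adjusted p = 5.27e-06). The effector Heyl was at 0.309 and 0.681 against 4.13 and 3.39 CPM (log2 -2.95 ± 0.42, edgeR adjusted p = 0.00118). Hes5 (-3.28 ± 0.52, edgeR adjusted p = 0.00211) and Hey1 (-0.78 ± 0.20, edgeR adjusted p = 0.0236) were lower and the receptor Notch3 (1.25 ± 0.21, edgeR adjusted p = 0.00315) higher. The Hes5 call was lost and its sign turned when no cells were gated out.

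Of 19 FGF genes, 4 were higher, 3 lower and 12 did not pass (median 0.06). Ligands were called in opposite directions. Fgf10 was at 6.02 and 9.52 against 0.798 and 1.59 CPM (log2 2.70 ± 0.47, edgeR adjusted p = 0.0033). Fgf18 was at 5.41 and 4.37 against 17.7 and 20.7 CPM (log2 -1.97 ± 0.25, edgeR adjusted p = 0.000578). Receptors were called in both directions as well. Fgfr1 was higher (1.09 ± 0.14, edgeR adjusted p = 0.000746) and Fgfr2 (-0.88 ± 0.17, edgeR adjusted p = 0.00572) and Fgfr4 (-2.13 ± 0.54, edgeR adjusted p = 0.0215) lower in -KTS KO. The feedback inhibitors Spry1 (1.25 ± 0.28, edgeR adjusted p = 0.0128) and Spry2 (0.88 ± 0.26, edgeR adjusted p = 0.0416) were higher, past the threshold in 10 and 7 of 14 alternatives.

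Of 18 retinoic acid genes tested among 19, 5 were higher in -KTS KO, 1 lower and 12 did not pass (median 0.59). The synthesis enzyme Aldh1a1 was at 60.5 and 54.3 CPM in -KTS KO, 8.26 and 5.79 CPM in +KTS KO and 13.1 and 14.1 CPM in WT (log2 3.03 ± 0.21, edgeR adjusted p = 2.29e-05). Stra6, the retinol transporter, was at 6.72 and 2.68 against 1.41 and 1.63 CPM (log2 1.63 ± 0.40, edgeR adjusted p = 0.0191). For Aldh1a1 the WT level lay between the mutants. The receptor Rarg (1.34 ± 0.37, edgeR adjusted p = 0.0342) and Aldh1a2 were also higher. Cyp26b1, which degrades retinoic acid, was the lower one, at 3.49 and 3.74 against 9.82 and 7.57 CPM (log2 -1.27 ± 0.34, edgeR adjusted p = 0.0295).

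Of 18 genes of the insulin-like growth factor system, 4 were higher, 4 lower and 10 did not pass (median 0.34). Igf2, the fetal growth factor expressed from the paternal allele, was at 205 and 170.4 CPM in -KTS KO, 458 and 504 CPM in +KTS KO and 259 and 335 CPM in WT (log2 -1.36 ± 0.22, edgeR adjusted p = 0.00214). Its imprinted neighbour H19, a noncoding RNA expressed from the maternal allele, moved with it, at 179.8 and 132 against 579 and 583 CPM (log2 -1.90 ± 0.29, edgeR adjusted p = 0.00168). Both lay between the mutants in WT. Igfbp7, a secreted binding protein, was at 1.16 and 2.53 against 45.1 and 41.8 CPM (log2 -4.58 ± 0.70, edgeR adjusted p = 0.00178). Igfbp2 was at 45.6 and 42.5 against 187 and 101 CPM (log2 -1.71 ± 0.26, edgeR adjusted p = 0.00174), with WT above both mutants for Igfbp2 (384 and 344 CPM). Igf1 was higher in -KTS KO, at 73.6 and 73.6 against 34.9 and 33.4 CPM (log2 1.11 ± 0.21, edgeR adjusted p = 0.00487), as were the protease Pappa (3.16 ± 0.52, edgeR adjusted p = 0.00266), Igf2r (0.64 ± 0.18, edgeR adjusted p = 0.0352) and Igf2bp3 (0.38 ± 0.11, edgeR adjusted p = 0.0408).

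Extracellular matrix genes were called in both directions, 44.4% of them against 18.1% of all genes tested, and most did not pass. Of 36 genes, 10 were lower in -KTS KO, 6 higher and 20 did not pass (median 0.06). The lower genes with the largest changes encode collagen VI and basement membrane proteins. Col6a1 was at 3.01 and 4.77 CPM against 41.7 and 47.0 CPM (log2 -3.52 ± 0.33, edgeR adjusted p = 0.000119). Col6a2 was at 3.12 and 3.79 against 19.4 and 26.0 CPM (log2 -2.72 ± 0.36, edgeR adjusted p = 0.000779). The laminin Lama1 was at 4.36 and 4.50 against 23.7 and 24.0 CPM (log2 -2.43 ± 0.17, edgeR adjusted p = 2.69e-05). The collagen IV gene Col4a1 was at 24.4 and 33.9 against 131 and 125 CPM (log2 -2.13 ± 0.28, edgeR adjusted p = 0.000742). For all 4 of these genes WT lay between the mutants. Ecm1, a secreted glycoprotein, was higher in -KTS KO, at 138 and 113 against 6.16 and 31.0 CPM (log2 2.76 ± 0.76, edgeR adjusted p = 0.0317). Its difference was 4.34 without +KTS KO replicate 2 and 2.02 without +KTS KO replicate 1, and the call was lost in 3 of the 4 fits without 1 library (edgeR adjusted p up to 0.143). The fibrillar collagen gene Col1a1 was at 204 and 120.5 against 32.9 and 70.1 CPM (log2 1.66 ± 0.47, edgeR adjusted p = 0.0355). Also higher were elastin (Eln, 1.56 ± 0.43, edgeR adjusted p = 0.0325) and decorin (Dcn, 1.34 ± 0.31, edgeR adjusted p = 0.0157).

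**Figure D4:**
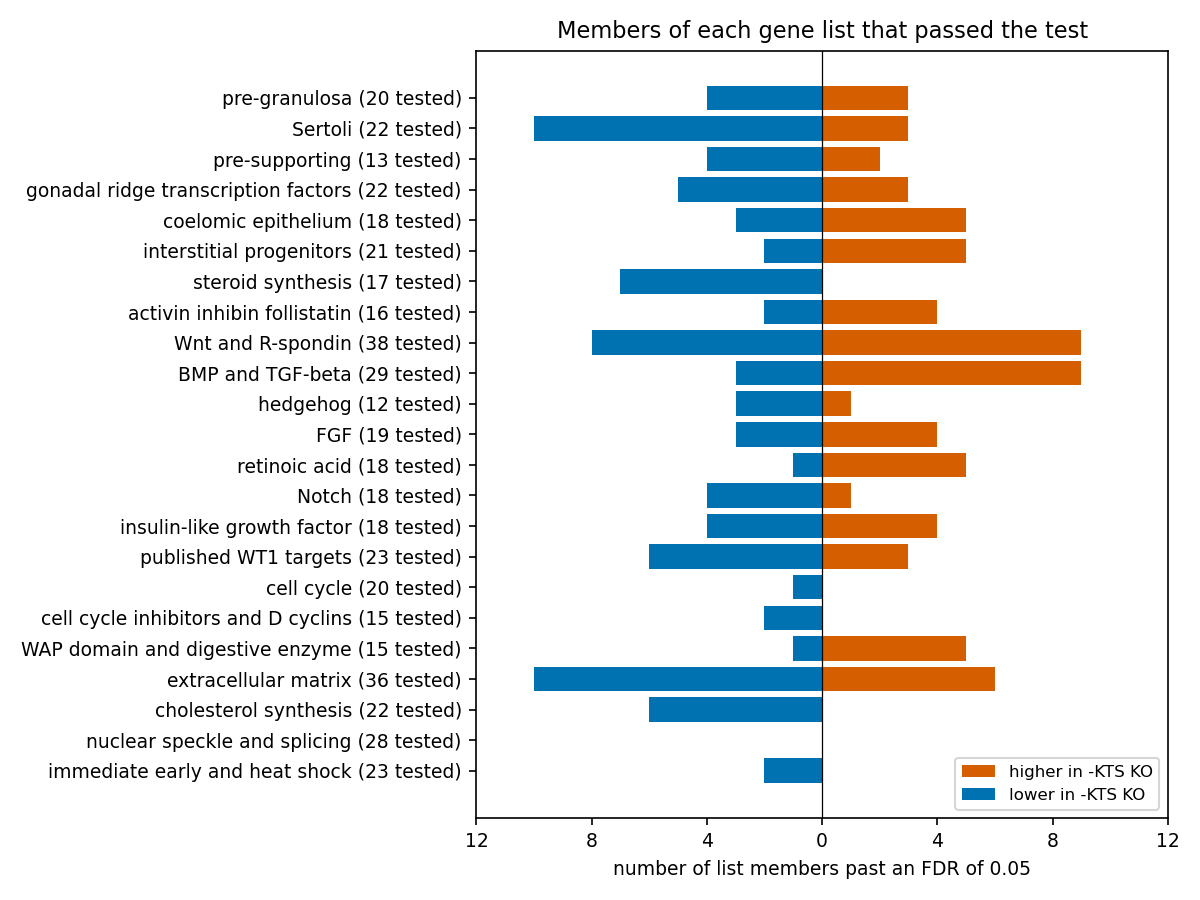
For each of 23 gene lists, bars to the right count the members called higher in XX -KTS KO and bars to the left those called lower, with the number tested in brackets. Steroid and cholesterol synthesis have bars to the left only, retinoic acid and BMP genes lie mostly to the right, and cell cycle and splicing genes show 1 and 0 calls.

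Few proliferation genes passed the test. Of 20 cell cycle genes, 1 was lower (Mcm5, a subunit of the replicative helicase, log2 -0.90 ± 0.19, edgeR adjusted p = 0.0105), none was higher and 19 did not pass (median -0.04), which is 5% against the 18.1% of all genes tested. The Mcm5 call was past the threshold in 11 of 14 alternatives, and lost without the gate on other cell types (log2 -0.44, edgeR adjusted p = 0.223) and without -KTS KO replicate 1 or +KTS KO replicate 1. Among 15 cyclin-dependent kinase inhibitors, D cyclins and related genes, 2 were lower, Cdkn2b (0.0458 and 0.0665 against 2.65 and 0.704 CPM, log2 -4.90 ± 0.79, edgeR adjusted p = 0.00238) and Ccnd2 (54.3 and 43.1 against 107 and 101 CPM, log2 -1.10 ± 0.24, edgeR adjusted p = 0.0103), and 13 did not pass (median -0.07). Without the gate Cdkn2b was at -2.03 and did not pass (edgeR adjusted p = 0.0637). Of 28 genes of nuclear speckles and splicing, none passed with edgeR (median 0.06), 1 had an unadjusted p under 0.05 and 1, Pnn, passed with DESeq2. Of 23 immediate early and heat shock genes tested among 24, which can rise during dissociation, 2 were lower, Hspb1 (-1.01 ± 0.21, edgeR adjusted p = 0.00953) and Hspa1b (-1.49 ± 0.26, edgeR adjusted p = 0.00383), whose reads are shared with the near-identical Hspa1a, and 21 did not pass (median -0.26).

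The largest rises in -KTS KO, taken against +KTS KO, among genes of at least 20 CPM were of mixed kinds. U90926 was at 24.5 and 26.6 CPM against 0.0845 and 0.357 CPM (log2 6.88 ± 0.73, edgeR adjusted p = 0.000242). Cd55, a surface inhibitor of complement, was at 74.3 and 92.2 against 2.49 and 2.92 CPM (log2 4.94 ± 0.25, edgeR adjusted p = 5.72e-06). Capn6, a member of the calpain family, was at 108 and 114 against 4.04 and 5.86 CPM (log2 4.48 ± 0.41, edgeR adjusted p = 0.000107). Cck, the peptide hormone cholecystokinin, was at 40.03 and 78.7 against 2.40 and 3.71 CPM (log2 4.28 ± 0.49, edgeR adjusted p = 0.000379). For U90926, Cd55 and Capn6 the WT level lay between the mutants, at 3.90 and 2.21, 14.9 and 16.0 and 8.59 and 10.9 CPM. For Cck the WT libraries, at 3.42 and 3.51 CPM, lay at the +KTS KO level. The other 8 of the 12 were 1810065E05Rik (4.44 ± 0.64), Nup62cl (4.26 ± 0.78), Wfdc10 (4.13 ± 0.70), the neuritin gene Nrn1 (4.13 ± 0.48), Wfdc13 (4.13 ± 0.55), the heparan sulfate sulfotransferase gene Hs3st1 (4.06 ± 0.38), Cav1 and the long noncoding RNA Rmst (3.84 ± 0.73). Wfdc10 and Wfdc13 encode whey acidic protein (WAP) domain proteins. In the list of WAP domain and digestive enzyme genes, chosen after earlier results of these libraries, 5 of 15 tested among 20 were higher in -KTS KO, 1 was lower and 9 did not pass (median 0.95), with Cpa1, a carboxypeptidase, at 505 and 344 CPM against 54.8 and 66.1 CPM (log2 2.81 ± 0.25, edgeR adjusted p = 8.43e-05). Wfdc2 was at 45.1 and 36.8 against 4.42 and 10.9 CPM (log2 2.42 ± 0.71, edgeR adjusted p = 0.0412). Wfdc1, the lower one, was at 0.0573 and 0 against 15.2 and 10.8 CPM (log2 -8.54 ± 0.70, edgeR adjusted p = 5.79e-05). With 5 UMIs in 1 -KTS KO library and 0 in the other, its fitted difference ran from -13.16 to -7.80 with either left out. In -KTS KO, Wfdc2 also makes up most of the mesonephric duct and tubule marker list. That list summed to 54.3 and 41.5 CPM in -KTS KO and 17.6 and 20.04 CPM in +KTS KO. The other 8 of its 9 tested members, Pax2 and Pax8 among them, did not pass, and its median was -0.53.

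The largest falls in -KTS KO, taken against +KTS KO, reached further than the rises. Pnmt, the enzyme that makes adrenaline from noradrenaline, was at 0.126 and 0.116 CPM in -KTS KO and 53.1 and 40.3 CPM in +KTS KO (log2 -8.57 ± 0.31, edgeR adjusted p = 1.09e-06), with WT at 1.59 and 1.495 CPM. Rhox8, an X-linked homeobox gene of Sertoli and granulosa cells, was at 0.0458 and 0.150 against 43.5 and 18.4 CPM (log2 -8.41 ± 0.73, edgeR adjusted p = 7.42e-05), with WT at 24.8 and 31.3 CPM. Aqp5, a water channel, was at 0.687 and 0.947 against 150.01 and 70.6 CPM (log2 -7.09 ± 0.45, edgeR adjusted p = 1.69e-05), with WT at 59.3 and 48.6 CPM. WT stood between the mutants for Pnmt and Aqp5 and overlapped +KTS KO for Rhox8. Cst12, a cystatin, was at 0.0458 and 0.166 against 52.8 and 18.5 CPM (log2 -8.51 ± 0.95, edgeR adjusted p = 0.000311). Ctrb1, chymotrypsinogen, was at 1.55 and 0.166 against 98.2 and 59.9 CPM (log2 -6.45 ± 0.70, edgeR adjusted p = 0.000275), and its difference was -8.88 without -KTS KO replicate 1. The others, beside Cyp11a1, were Gsg1l (-6.78 ± 0.29), Tmem184a (-6.13 ± 0.30), Gchfr (-5.59 ± 1.18), a regulator of tetrahydrobiopterin synthesis, renin (Ren1, -5.58 ± 0.92), the tetraspanin gene Tspan33 (-5.30 ± 0.48) and Arhgef16 (-5.22 ± 0.30), a guanine nucleotide exchange factor. WT lay between the mutants for Cst12 (11.9 and 12.5 CPM) and Ctrb1 (4.53 and 3.05 CPM). It also did so for Gsg1l (1.76 and 1.61), Tmem184a (8.66 and 10.04), Gchfr (14.4 and 1.81), Ren1 (2.53 and 1.49), Tspan33 (10.9 and 8.67) and Arhgef16 (3.20 and 3.70 CPM). Their gaps thus span a lower level in -KTS KO and a higher one in +KTS KO than in WT. All 24 genes of these rises and falls passed the test in all 14 alternatives except Gchfr, which passed in 12 (largest edgeR adjusted p = 0.0838). Without the gate on other cell types the log2 difference of Rhox8 was -2.97, that of Tspan33 -3.06 and that of Cav1 2.10, and Cd55 (4.26), Gchfr (-4.90) and Arhgef16 (-4.46) also moved toward 0 by over 1.5-fold.

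Genes of lower level that were nearly silent in 1 mutant, named after their values were seen, lay on both sides. Aqp2, a water channel of the collecting duct, had 3 UMIs in -KTS KO and 3062 in +KTS KO, a ratio of 757 (counting interval 259 to 3671), and Lcn2, a lipocalin, had 1 and 2320, a ratio of 1720 (308 to 67964). Padi6, a gene known from oocytes, had 0 and 631 UMIs, at least 156-fold lower in -KTS KO. In the other direction Mir205hg, a host gene of a microRNA, had 1210 UMIs in -KTS KO and 0 in +KTS KO, at least 544-fold higher, and Tnn, the matrix protein tenascin N, had 294 and 0, at least 132-fold higher. WT stood at 9.14 and 10.3 CPM for Aqp2, 6.99 and 4.97 CPM for Lcn2 and 1.25 and 0.921 CPM for Mir205hg, between the mutants in each case.

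Other cell types in the somatic cells moved with some results. A stricter germ cell rule (at least 5 UMIs) found 1569 rather than 1293 germ cells in -KTS KO replicate 2. It found 315 rather than 306 in -KTS KO replicate 1, and 538 rather than 532 and 160 rather than 158 in +KTS KO. Of the 8 germ cell markers, Sall4 was higher (log2 2.75 ± 0.76, edgeR adjusted p = 0.0317) and Utf1 lower (log2 -2.003 ± 0.51, edgeR adjusted p = 0.0229) in -KTS KO and 6 did not pass. The median log2 difference was 1.96. An unadjusted p under 0.05 was reached with edgeR by 5 of these 8 markers, and 5 passed with DESeq2. Their summed level was 14.7 and 123 CPM in -KTS KO and 68.3 and 53.3 CPM in +KTS KO, where most of it was Utf1 (58.8 and 48.7 CPM), a gene at 39.9 and 38.5 CPM in WT. Sall4 was at 0.412 and 3.19 CPM in the -KTS KO libraries and 0.291 and 0.238 CPM in +KTS KO, and without -KTS KO replicate 2, the library with the many germ cells, its log2 difference was 0.64 (edgeR adjusted p = 0.484). Endothelial (50.3 and 56.5 against 54.3 and 39.0 CPM), immune (0.790 and 1.45 against 1.19 and 0.953 CPM) and erythroid markers (171 and 420 against 451 and 133 CPM) overlapped between the mutants in summed level, and none of their 22 tested members passed with edgeR (3 at an unadjusted p under 0.05) or with DESeq2. Neural crest and neuron markers summed to 7.80 and 6.73 CPM in -KTS KO and 3.62 and 3.69 CPM in +KTS KO, with 3 of 8 higher, among them Tubb3 and Th (the latter with 24 UMIs against 2), while the defining Sox10 and Foxd3 had 0 UMIs in -KTS KO and 7 and 3 in +KTS KO. Their part in the results was not tested.

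The same contrast was made in XY gonads, whose 4 mutant libraries share none with the XX comparison. There 3783 genes (21%) were called, and 2382 genes were called in both sexes in the same direction, 72.9% of the XX and 63.0% of the XY calls, with 0 called in opposite directions. Of the XX calls, 98.5% had the same sign in XY, against 73.7% of all genes tested, and the log2 differences of the 18019 genes had a Pearson r of 0.82 between the sexes, as a description across genes that share libraries. Foxl2 differed by -7.39 ± 0.87 in XY, Cyp11a1 by -6.28 ± 0.62, Nr0b1 by -2.56 ± 0.30, Inha by -2.11 ± 0.34 and Upk3b by 1.88 ± 0.24, each the same way as in XX. Amh was at 0.194 and 0.156 CPM in XY -KTS KO and 25.7 and 11.2 CPM in XY +KTS KO, a difference of -6.72 ± 0.78. Gng13 was at 17.4 and 19.8 CPM in XY -KTS KO and 46.2 and 6.68 CPM in XY +KTS KO, a difference of -0.51 ± 0.63 against 2.35 ± 0.66 in XX, with the XY libraries overlapping. The test of the difference between the sexes called 0 genes with edgeR (smallest adjusted p = 0.838), with 892 genes (4.95%) at an unadjusted p under 0.05, and 11 with DESeq2. With edgeR no XX difference is shown to be particular to XX.

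**Figure D5:**
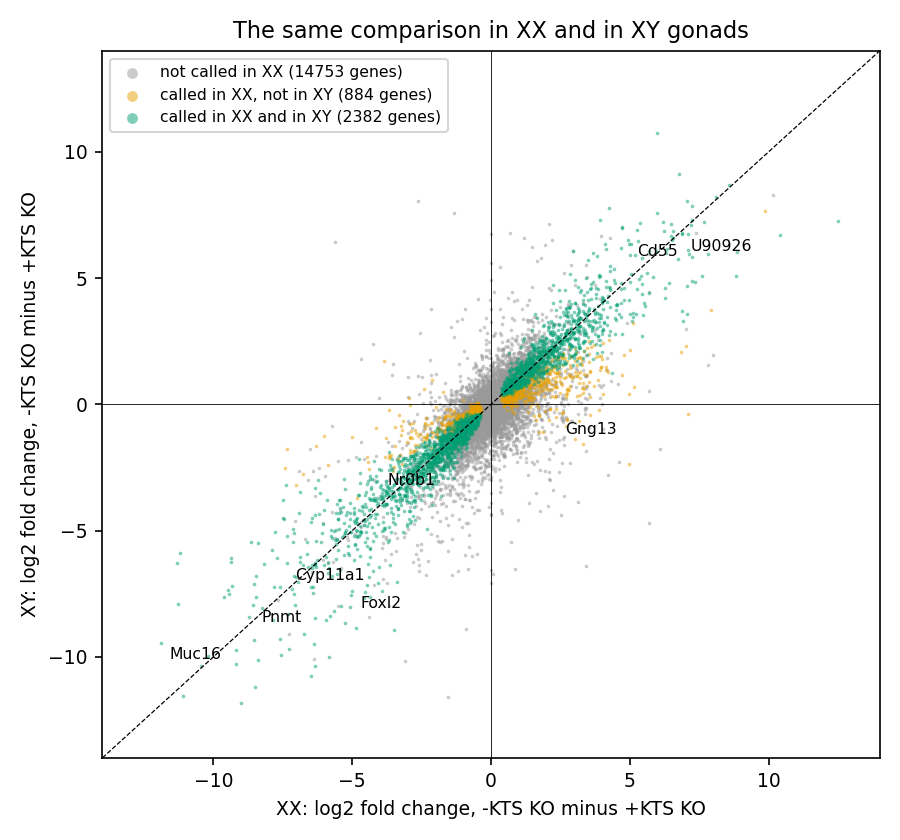
Each point is 1 of 18019 genes, with the log2 difference between -KTS KO and +KTS KO in XX gonads on the horizontal axis and in XY gonads on the vertical axis, and the dashed line marks equal differences. The 2382 genes called in both sexes (green) lie at the lower left and upper right, and those called in XX and not in XY are orange.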

How the data were processed

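Gonads of E12 embryos were dissociated with trypsin and single-cell libraries were made with the 10x Genomics 3' chemistry (version 3 in the study's methods, v2 per the labels). The deposited matrices hold whole-number UMI counts per gene and cell, made by the authors with Cell Ranger 6.0 on mm10, per the submitters' processing notes. No further normalization was in these counts.

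Counts were read per library with the cell filters given above, doublets were not removed except in 1 alternative (Scrublet, in scanpy 1.11.5), and UMIs were summed over cells. All 12 libraries were fitted together by group (6 residual degrees of freedom) with edgeR 4.0.16 in R 4.3.3, with TMM scaling, edgeR's filter on low counts and its quasi-likelihood test, and Benjamini-Hochberg adjustment at 0.05. CPM use the TMM-scaled library sizes. The script was first tested on simulated data. DESeq2 1.42.0 was an alternative, with other scaling, filters, gates, sets of libraries, the replicate number as a block and each library left out. Gene coordinates and the Wt1 exon come from GENCODE M21 on GRCm38, and promoters from RefSeq.

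The members and the gene lists were chosen with earlier results of these data known, and lists share genes. Genes named are the 12 largest rises and the 12 largest falls among called genes whose groups did not overlap and whose higher group reached 20 CPM, a set of anchor genes of the gonad, and up to 4 called genes in each direction of each list. Counting intervals and floors (3 counts) cover counting error only. Replicates of a group differed beyond sampling noise in every group. Some members of the lists and 1 promoter match are not reported here.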

Additional observations from a re-analysis of the deposited data

How the results depend on the processing

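The count of called genes in XX (3266) ranged from 2361 (no gate on other cell types) to 4095 (the 6 XX libraries fitted alone) over the alternatives that kept all replicates, with DESeq2 at 3839. With the replicate number as a block 3082 genes were called. Same-numbered libraries of XX -KTS KO and XX +KTS KO did not deviate together (r = -0.054), and over all pairs of groups r ran from -0.433 to 0.497, so the number was not taken to pair the samples. Leaving out 1 XX library gave 1564 to 2177 calls in XX, and leaving out 1 XY library gave 1833 to 4793 in XY (main 3783). The test of the difference between the sexes called 0 genes with edgeR, 11 with DESeq2, 1 without a filter on low counts, 1 without the gate and 0 to 6 with 1 library left out. For the fits without 1 library a kept direction was fixed in advance, as the groups overlapped for no called gene. All calls kept their direction under the XX alternatives except without the gate, where 54 of 3264 turned and 2113 were still called. Among the named genes 2 turned there, Hes5 (0.18, edgeR adjusted p = 0.862) and Utf1 (0.93, edgeR adjusted p = 0.169), and 25 lost their call without turning (edgeR adjusted p from 0.0525 to 0.382), among them Notch3, Cdkn2b, Tubb3, Mcm5, Krt18, Bambi and Col1a1. Of 138 called, 21 moved by over 1.5-fold there. The cause was not tested. Over the 14 alternatives the log2 difference ran from -6.05 to -3.82 for Lfng, from 4.02 to 5.50 for Dkk1 and from -4.48 to -3.39 for Nr0b1. Of the 138 called genes chosen for naming, 85 passed without any 1 XX mutant library, and the calls lost without one (46 without +KTS KO replicate 1, 40 without -KTS KO replicate 1, 32 and 31 without the others) had edgeR adjusted p up to 0.484 and kept their direction. Pdgfa, Gng13, Cbx2, Rgs5, Smad3, Rspo3, Hey1, Wfdc2, Eln, Dcn, Hmgcs1, Igf2bp3 and Mc2r were lost in each of those 4 fits. Fewer than 12 of 14 alternatives kept the call of these genes: Cbx2 and Mc2r in 5, Spry2 and Igf2bp3 in 7, Cldn11, Lhx2 and Sall4 in 8, Pdgfrl, Rgs5, Smad3, Stra6, Rarg, Hey1 and Eln in 9, Pdgfa, Gng13, Lgr5, Krt18, Bambi, Rspo3, Bmper, Spry1, Igf2r, Wfdc2, Dcn, Hmgcs1 and Utf1 in 10, Ptgds, Acvr2b, Lgr6, Nog, Fgfr4, Cyp26b1, Mcm5, Ecm1, Col1a1, Hspb1, Cspg4 and Th in 11. Without 1 library, 40 of the 138 moved by over 1.5-fold, Dhh and Wfdc1 with a -KTS KO library at 0, so that their fitted values are no bounds. Without -KTS KO replicate 1 the log2 differences were Cst12 -7.74, Rhox8 -7.68, Cyp11a1 -8.24, Ctrb1 -8.88, Dhh -11.85, Cst9 -5.18, Cldn11 0.59, Osr1 2.22, Mgp -3.15, Cyp17a1 -3.50, Sp5 -3.28, Bmper -1.99, Nog 1.18, Stra6 0.81, Hes5 -2.56, Wfdc1 -13.16, Utf1 -1.39, Sall4 3.58 and Mrap -3.77. Without -KTS KO replicate 2 the log2 differences were Cst12 -9.56, Rhox8 -9.36, Ctrb1 -5.67, Dhh -7.75, Ptgds -5.70, Tac1 6.53, Mgp -1.50, Cyp17a1 -1.76, Hes5 -4.28, Heyl -3.60, Igfbp7 -5.23, Wfdc1 -7.80, Utf1 -3.09 and Sall4 0.64. Without +KTS KO replicate 1 the log2 differences were U90926 6.15, 1810065E05Rik 5.09, Rmst 4.59, Cst12 -7.56, Rhox8 -7.66, Aqp5 -6.45, Foxl2 -4.28, Amh -4.70, Lgr5 2.70, Ptgds -3.26, Osr1 2.34, Sp5 -1.84, Frzb 2.61, Cdkn2b -3.65 and Ecm1 2.02. Without +KTS KO replicate 2 the log2 differences were U90926 8.20, Nup62cl 5.14, Ptgds -5.83, Osr1 3.92, Frzb 5.89, Rspo3 3.09, Smad9 4.07, Fgfr4 -1.37, Cdkn2b -5.57, Wfdc2 3.20, Ecm1 4.34 and Col1a1 2.29. The 3' counts do not resolve Wt1 splicing, and 2 libraries a group limit every test.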
